A study of Mus musculus with 9 samples.

Results

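The brush border peptidases are enzymes of the microvillus membrane of enterocytes that cut dietary peptides before uptake. The 9 genes followed here were Tmprss15, Ace, Anpep, Dpp4, Enpep, Mep1a, Mep1b, Naaladl1 and Xpnpep2, each read through every probe set annotated to exactly 1 of these symbols. That gave 14 probe sets for 9 genes, of 18193 genes named on the array. All 14 passed the filter on low values. Total RNA from mouse small intestine was hybridized to Affymetrix whole-genome mouse expression arrays, 1 array per mouse, with 3 adult male mice of 6 to 8 weeks in each of 3 groups. Control jejunum and control ileum came from Gata4loxP/+VilCre mice, and the jejunal and ileal controls were different animals. Mutant jejunum came from Gata4loxP/-VilCre mice. All 3 groups therefore carried the VilCre transgene, in which the villin promoter drives Cre recombinase in the intestinal epithelium, and 1 loxP-flanked copy of Gata4. The groups differed in the other copy, which was wild-type in controls and null in mutants. The jejunal piece lay 10 cm beyond the pyloric sphincter, the ileal piece 1 cm from the cecum. Whether the whole gut wall was taken is not stated.

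Protein that leaves the stomach is first cut by pancreatic proteases, which enteropeptidase, the product of Tmprss15, sets off by activating trypsinogen. The resulting oligopeptides are then shortened at the microvillus surface. Aminopeptidases such as those of Anpep and Enpep take residues from the amino end, Dpp4 and Xpnpep2 act next to proline, Ace removes dipeptides from the carboxyl end, and the meprins cut within the chain. Free amino acids and small peptides then enter the enterocyte through separate carriers.

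The 250 bases upstream of a RefSeq transcription start are shown for Tmprss15 and Ace, the genes with lower levels in mutant jejunum, and for Mep1a, the gene with the largest rise, since these are the members on which the comparison turns. They come from RefSeq on GRCm38.p6, read 5′ to 3′ on the gene's strand. Capitals mark matches, on either strand, to the letters AGATAA or AGATAG and to TGATAA or TGATAG, forms that GATA factors are known to bind.
Tmprss15, chr16:79091098-79091347, minus strand: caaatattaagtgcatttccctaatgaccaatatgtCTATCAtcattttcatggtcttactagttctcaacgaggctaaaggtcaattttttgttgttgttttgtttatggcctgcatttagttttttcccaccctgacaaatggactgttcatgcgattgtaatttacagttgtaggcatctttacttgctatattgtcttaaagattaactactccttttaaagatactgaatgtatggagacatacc
Ace, chr11:105967698-105967947, plus strand: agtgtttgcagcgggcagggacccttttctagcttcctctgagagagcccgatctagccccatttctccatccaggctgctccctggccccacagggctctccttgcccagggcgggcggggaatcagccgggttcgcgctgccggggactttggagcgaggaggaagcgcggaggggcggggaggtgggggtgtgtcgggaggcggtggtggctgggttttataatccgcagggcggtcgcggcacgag
Mep1a, chr17:43502774-43503023, minus strand: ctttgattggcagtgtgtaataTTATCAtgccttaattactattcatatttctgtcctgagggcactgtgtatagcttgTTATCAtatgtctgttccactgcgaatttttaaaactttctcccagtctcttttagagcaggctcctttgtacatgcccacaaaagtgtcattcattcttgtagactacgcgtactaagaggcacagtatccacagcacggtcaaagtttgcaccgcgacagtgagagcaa
The Tmprss15 window held 1 such match, 209 to 214 bases upstream of the start. The Mep1a window held 2, at 166 to 171 and 223 to 228 bases upstream, and this Ace window held none. The Tmprss15 and Ace windows end at the edge of the gene's annotated span. The Mep1a window lies wholly inside that span, before a start 1370 bases in from its 5′ end, so other Mep1a starts further upstream are not covered. Promoter windows were matched for 7 of the 9 genes. Besides these, Dpp4 held 1 match, 27 to 32 bases upstream of a start that lies 84 bases inside the annotated gene. None was found in the windows of Anpep and Enpep, at the edge of their genes, or in those of Xpnpep2 and a further start of Ace, which lie inside theirs. Of all 32851 promoter windows of this length, 26.5% held at least 1 match. The letters GTTAAT, bound by HNF1 factors, and TTTATG, bound by CDX factors, were each found once among these windows, both in Tmprss15, against 6.43% and 10.8% of all windows. A match describes the letters of the window and not a bound site.

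The arrays differed in brightness before normalization. With 2% trimmed at either end, the mean intensity was 147 to 180 on the 6 jejunal arrays and 96.8 to 122 on the 3 ileal arrays, so segment and brightness cannot be told apart. The ileal arrays stood at 0.674 of the jejunal ones by this mean and at 0.580 by the array's spike controls. Levels below are quantile-normalized log2(intensity + 16), on which an intensity of 0 gives 4 or a little more, and a fold is 2 to the power of a difference on this scale. They are written in the order array 1, 2 and 3 of a group. Mutant jejunum 3 scored -55.8 on the second principal component, where the other mutant arrays scored 7.06 and 12.0, and differences are given without it where it matters. The enterocyte marker Vil1 was bright in each group (12.94 in control jejunum, 12.83 in the mutant, 12.88 in ileum). The summed normalized intensity of 14 enterocyte markers, Vil1 included, was not as even. It was 99510 to 99999 in control jejunum, 78308 to 97206 in mutant jejunum and 64196 to 73079 in control ileum. Between control ileum and control jejunum, 3 of these 14 were higher and 4 lower, against 8.79% and 9.12% of all genes tested. Between mutant and control jejunum, none of 14 enterocyte markers and none of 63 tested markers of 7 other cell types was called by limma. An unadjusted p under 0.05 was found for 5 and 4 of them, against 2530 of all 13830 genes tested. Between control ileum and control jejunum, 8 of 10 smooth muscle markers were higher, with summed normalized intensities of 16326 to 21294 against 8202 to 12060. T-cell markers went the other way, with 4 of 9 lower and sums of 1599 to 4310 in control ileum against 5918 to 7964 in control jejunum (Cd4 and Cd2 were below the filter). The part of these other cells in the ileal differences was not tested, and in bulk samples fewer cells of a type and less RNA per cell cannot be told apart. The targeted gene Gata4 was not called in either of its probe sets between mutant and control jejunum (9.50 against 9.53, and 8.23 against 7.57). Their place relative to the deleted part is unknown here, so they check nothing about the deletion.

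The first comparison asks which of these peptidases differed with the Gata4 genotype of the jejunum. Among the 9 genes, 2 were lower in mutant than in control jejunum, Ace and Tmprss15, and 2 were higher, Mep1a and Naaladl1. The other 5, Anpep, Dpp4, Enpep, Mep1b and Xpnpep2, were not called. A call is a limma adjusted p under 0.05, with adjustment over all 29307 probe sets tested, and a gene with several probe sets is counted by its brightest. Of all 13830 genes tested, 2.1% were called higher and 2.29% lower in this comparison. The median difference was -0.04 over the 9 peptidases and 0.00 over all genes tested. Levels of 5 of the 9 genes did not overlap between these groups, the 4 called ones and Anpep, against 25% of all genes tested. With 3 arrays against 3, a permutation test of a single gene cannot go below p = 0.10, so the tests rest on the limma fit across all probe sets. The same 4 genes were called without mutant jejunum 3.

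**Figure D1:**
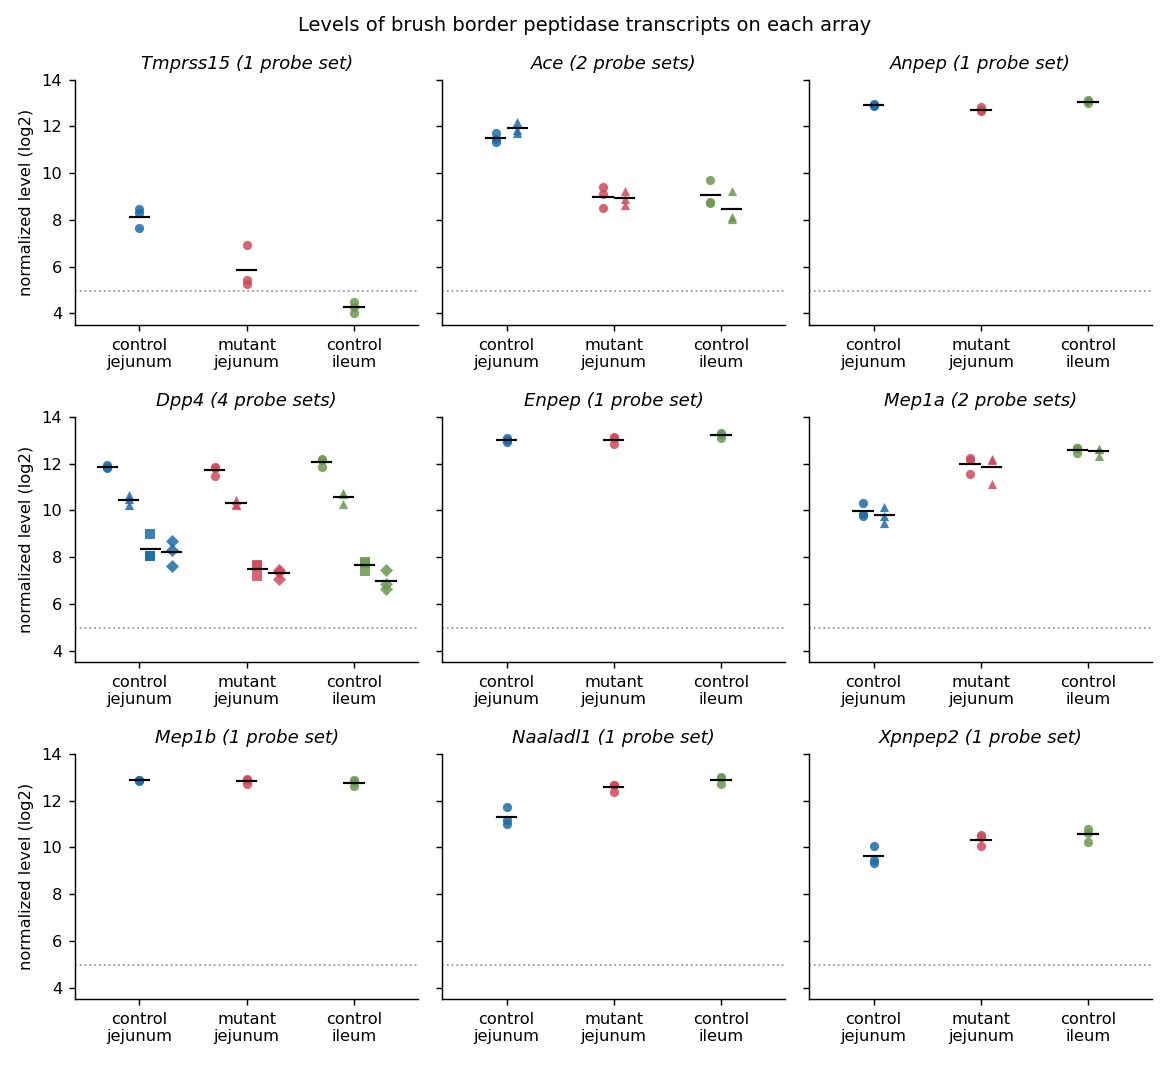
Normalized log2 level (vertical axis) of each peptidase on every array, by group; each point is 1 array, each marker shape 1 probe set, each bar the mean of 3 arrays, and the dotted line the level of 4.95 used in the filter on low values. The Ace and Tmprss15 points of mutant jejunum lie below those of control jejunum, those of Mep1a and Naaladl1 lie above, and those of Enpep and Mep1b overlap.

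Tmprss15 encodes enteropeptidase, the membrane serine protease that activates pancreatic trypsinogen. Its level was 8.28, 8.48 and 7.68 on the control jejunum arrays, 6.95, 5.25 and 5.42 on the mutant arrays and 4.49, 4.28 and 4.04 on the ileal arrays. The 3 groups did not overlap, and mutant jejunum 1 lay well above the other mutant arrays. On the deposited scale the intensities were 346, 350 and 218 on the control jejunum arrays, 126, 25.8 and 28.0 on the mutant arrays and 4.19, 2.87 and 0.315 on the ileal arrays. In control ileum all 3 arrays were thus below the filter level of 4.95. Tmprss15 fell by 2.27 in mutant against control jejunum (SE 0.39, limma adjusted p = 0.00913, n = 3 per group), a 4.83-fold lower level. With mutant intensities as low as 25.8, this size also rests on the pseudocount, being -1.59 with 64. Leaving out control jejunum 2 ended the call (adjusted p = 0.0505), as did a pseudocount of 1 (adjusted p = 0.0513), while without mutant jejunum 3 the difference was -2.05 (adjusted p = 0.0324). Control ileum was lower than control jejunum (log2 difference -3.88, adjusted p = 8.82e-05). That size rests on the pseudocount, being -6.22 with 1 and -2.31 with 64, and the ileal intensities are near 0.

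Ace encodes the angiotensin-converting enzyme, a zinc peptidase that also trims dietary peptides from the carboxyl end, and both of its probe sets gave a fall in the mutant. Probe set 1451911_a_at stood at 11.44, 11.33 and 11.73 on the control jejunum arrays, 9.39, 9.09 and 8.53 on the mutant arrays and 9.73, 8.79 and 8.73 on the ileal arrays. Mutant jejunum and control ileum overlapped, and every array of both lay below every array of control jejunum. It fell by 2.50 in the mutant (SE 0.27, limma adjusted p = 0.000537), a 5.65-fold lower level. Probe set 1427034_at read 11.71, 11.84 and 12.19 for control jejunum, then 9.24, 8.90 and 8.64 for the mutant, then 9.22, 8.02 and 8.11 for ileum. It fell by 2.99 (SE 0.28, adjusted p = 0.000217), which is 7.94-fold. Control ileum was lower than control jejunum by both probe sets, with log2 differences of -2.42 and -3.46 (adjusted p = 0.000208 and 2.24e-05). Ace is also known from the endothelium of blood vessels. The summed normalized intensity of 10 endothelial markers was 559 to 682 in control jejunum and 447 to 958 in mutant jejunum, with none of the 10 called between them. It was 398 to 410 in control ileum, where Kdr and Cldn5 were lower than in control jejunum, and the part of vessels in the ileal value of Ace was not tested.

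Mep1a encodes the alpha subunit of meprin, an astacin-family zinc endopeptidase, and had the largest rise of the members. Its probe set 1450719_at stood at 9.84, 9.76 and 10.30 on the control jejunum arrays, 12.16, 12.25 and 11.55 on the mutant arrays and 12.66, 12.66 and 12.45 on the ileal arrays. The groups did not overlap, and mutant jejunum 3 was the lowest mutant array. It rose by 2.02 in the mutant (SE 0.19, limma adjusted p = 0.000198), a 4.06-fold higher level, and by 2.24 without mutant jejunum 3. The other probe set, 1447252_s_at, gave 9.78, 9.45 and 10.13, then 12.16, 12.21 and 11.15, then 12.65, 12.60 and 12.34, a rise of 2.05 (SE 0.26, adjusted p = 0.00157). Control ileum exceeded control jejunum by 2.63 and 2.74 (adjusted p = 1.09e-05 and 6.26e-05).

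Mep1b, whose product is the beta subunit that anchors meprin in the membrane, was bright in every group and was not called in the 3 comparisons. Its level was 12.87, 12.86 and 12.89 on the control jejunum arrays, 12.92, 12.87 and 12.72 on the mutant arrays and 12.63, 12.83 and 12.87 on the ileal arrays. All 3 groups overlapped. The difference between mutant and control jejunum was -0.04 (95% interval -0.24 to 0.16, limma adjusted p = 0.876), and that between control ileum and control jejunum was -0.10 (95% interval -0.30 to 0.09). With no scaling between arrays the ileal level of Mep1b was called lower than that of control jejunum (-0.48, adjusted p = 0.0426) and lower than that of the mutant (mutant minus ileum 0.54, adjusted p = 0.0328). For Mep1a the interval of the mutant difference ran from 1.61 to 2.44, and the difference between the 2 subunits was not tested.

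Naaladl1 encodes a peptidase related to glutamate carboxypeptidase. It stood at 11.02, 11.15 and 11.72 on the control jejunum arrays, 12.68, 12.67 and 12.37 on the mutant arrays and 12.97, 13.01 and 12.71 on the ileal arrays. Every mutant array was above every control jejunum array and below every control ileum array. It rose by 1.28 in the mutant (SE 0.17, limma adjusted p = 0.00210), a 2.42-fold higher level. Control ileum stood 1.60 above control jejunum (adjusted p = 0.000132), or 3.03-fold.

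Xpnpep2 encodes the membrane-bound aminopeptidase P, which takes off an amino-terminal residue that precedes proline. It stood at 9.46, 9.35 and 10.07 on the control jejunum arrays, 10.53, 10.43 and 10.06 on the mutant arrays and 10.62, 10.81 and 10.25 on the ileal arrays. Control jejunum 3 and mutant jejunum 3 were nearly equal, so mutant and control jejunum overlapped. The mutant difference was 0.71 (95% interval 0.25 to 1.17, limma adjusted p = 0.0978) and was called without control jejunum 3 (0.93, adjusted p = 0.0477). Control ileum was higher than control jejunum by 0.93 (adjusted p = 0.0121). That call was lost without control jejunum 2 or control ileum 2 (adjusted p = 0.0548 and 0.0525). It was also lost with no scaling between arrays (0.37, adjusted p = 0.283) and with arrays centred on their medians (0.73, adjusted p = 0.0829).

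Anpep and Enpep encode the general aminopeptidases of the brush border, aminopeptidase N for neutral residues and aminopeptidase A for acidic ones. Both were among the brightest probe sets of the array, with means at percentiles 99.77 and 99.87 of all probe sets. Anpep stood at 12.92, 12.88 and 12.97 on the control jejunum arrays, 12.82, 12.70 and 12.64 on the mutant arrays and 13.10, 13.11 and 12.99 on the ileal arrays. The arrays of each group were close together and the groups did not overlap, with the mutant lowest and control ileum highest. The mutant difference from control jejunum was -0.20 (95% interval -0.37 to -0.03, limma adjusted p = 0.225). Enpep read 13.02, 12.93 and 13.11 for control jejunum, then 13.09, 13.12 and 12.83 for the mutant, then 13.26, 13.32 and 13.09 for ileum. Its control jejunum arrays overlapped with both other groups. Its mutant difference was -0.00 (95% interval -0.22 to 0.22, adjusted p = 0.992). In control ileum Anpep differed from control jejunum by 0.15 (95% interval -0.03 to 0.32) and Enpep by 0.21 (95% interval -0.01 to 0.43), neither of them called. With trimmed mean scaling both were called higher in control ileum (0.34 and 0.40, adjusted p = 0.0121 and 0.00834), and with no scaling both turned lower (-0.21 and -0.15). Whether such bright probe sets were near saturation was not tested.

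Dpp4, the dipeptidyl peptidase that releases amino-terminal dipeptides ending in proline or alanine, was measured by 4 probe sets that did not move alike. The brightest, 1416697_at, stood at 11.85, 11.81 and 11.94 on the control jejunum arrays, 11.81, 11.84 and 11.47 on the mutant arrays and 12.19, 12.16 and 11.85 on the ileal arrays. Its differences from control jejunum were -0.16 in the mutant (95% interval -0.44 to 0.11, limma adjusted p = 0.570) and 0.20 in control ileum (95% interval -0.08 to 0.47). The next brightest, 1459973_x_at, gave -0.13 and 0.13, with adjusted p = 0.731 and 0.623. The dimmer probe sets leaned lower. Probe set 1438279_at read 7.63, 8.71 and 8.29 for control jejunum, then 7.07, 7.36 and 7.47 for the mutant, then 7.45, 6.85 and 6.64 for ileum. It was lower in control ileum (-1.23, adjusted p = 0.0117) and gave -0.91 in the mutant (adjusted p = 0.107), a difference that was called without control jejunum 1 (-1.19, adjusted p = 0.0338) and with array weights (-0.95, adjusted p = 0.0386). Probe set 1441342_at gave -0.85 in the mutant (adjusted p = 0.0968) and -0.72 in control ileum (adjusted p = 0.0755). Which parts of the transcript the 4 probe sets read is unknown here, and the gene is counted by its brightest one, as not called.

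**Figure D2:**
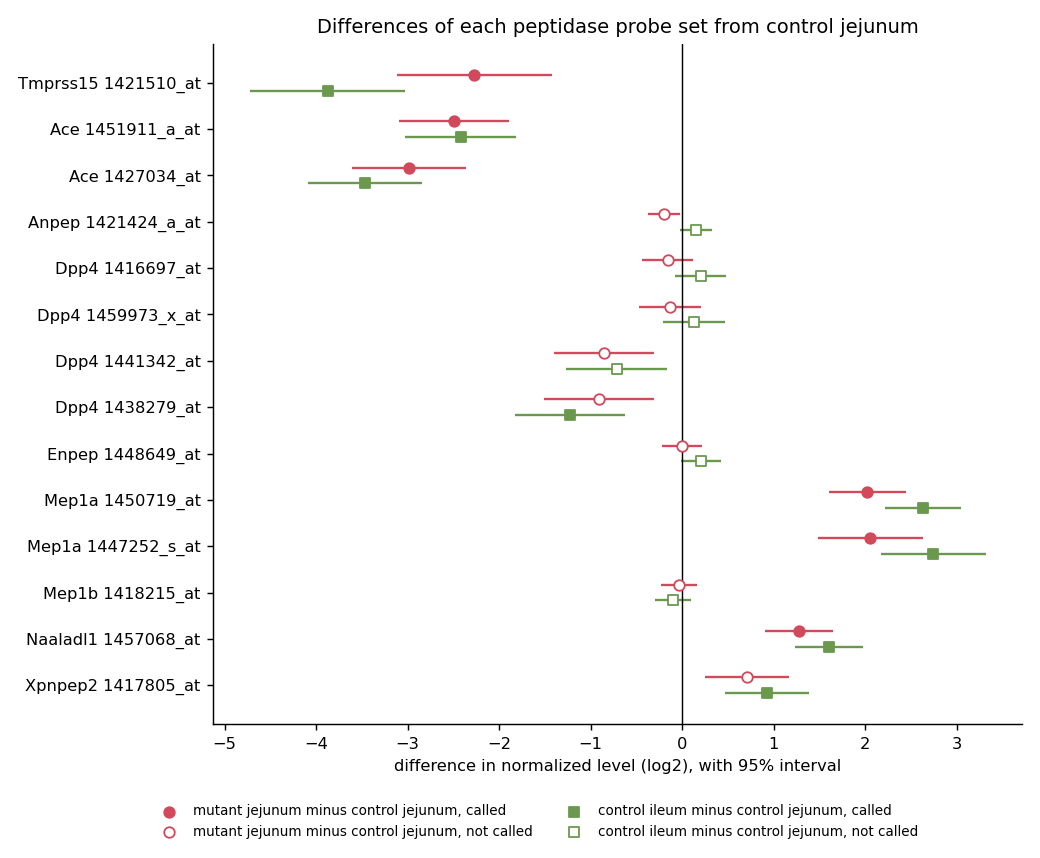
Log2 difference (horizontal axis) of each of the 14 probe sets from control jejunum, with its 95% interval, for mutant jejunum (circles) and control ileum (squares); filled symbols are called at limma adjusted p under 0.05. The probe sets of Ace, Mep1a, Naaladl1 and Tmprss15 are called in both comparisons, and Xpnpep2 and 1 probe set of Dpp4 in that of control ileum.

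The comparison of control ileum with control jejunum shows how these genes differ between segments of Gata4loxP/+VilCre mice, which carry 1 loxP-flanked copy themselves. Of the 9 genes, 3 were higher in control ileum, Mep1a, Naaladl1 and Xpnpep2, and 2 were lower, Ace and Tmprss15. Of all genes tested, 8.79% were called higher and 9.12% lower. Levels did not overlap for 6 of the 9, the 5 called genes and Anpep, against 40.1% of all genes tested. Over probe sets, 2449 were called higher and 2303 lower, which became 619 and 10013 with no scaling between arrays and 1543 and 2665 with arrays centred on their medians. Ace and Tmprss15 remained lower and Mep1a and Naaladl1 higher under each scaling. Anpep, Dpp4, Enpep and Mep1b, which were not called, had differences between -0.10 and 0.21. The median was 0.20 over the 9 peptidases and 0.03 over all genes tested. Both comparisons use the same control jejunum arrays, so the values of the 2 are set side by side here and their likeness was not tested.

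Where the control segments differed by at least 1 on the log2 scale, each mutant array was placed on a scale from 0, the control jejunum mean, to 1, the control ileum mean. Mutant jejunum lay at 0.309, 0.748 and 0.703 for Tmprss15. Its mean position of 0.587 was 0.436 with a pseudocount of 1 and 0.691 with 64, since all its ileal values are below the filter level, so its place between the segments has no fixed size. It lay at 0.872, 0.996 and 1.23 for Ace by probe set 1451911_a_at and at 0.772, 0.871 and 0.945 by 1427034_at. For the genes that are higher in ileum the positions were 0.837, 0.869 and 0.605 for Mep1a by probe set 1450719_at, 0.866, 0.885 and 0.495 by 1447252_s_at, and 0.864, 0.860 and 0.671 for Naaladl1. Mutant jejunum 3 was thus the furthest toward ileum for Ace and the least far for Mep1a and Naaladl1. The Dpp4 probe set 1438279_at lay at 0.924, 0.687 and 0.602. These positions are descriptions, since numerator and denominator share the control jejunum mean.

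**Figure D3:**
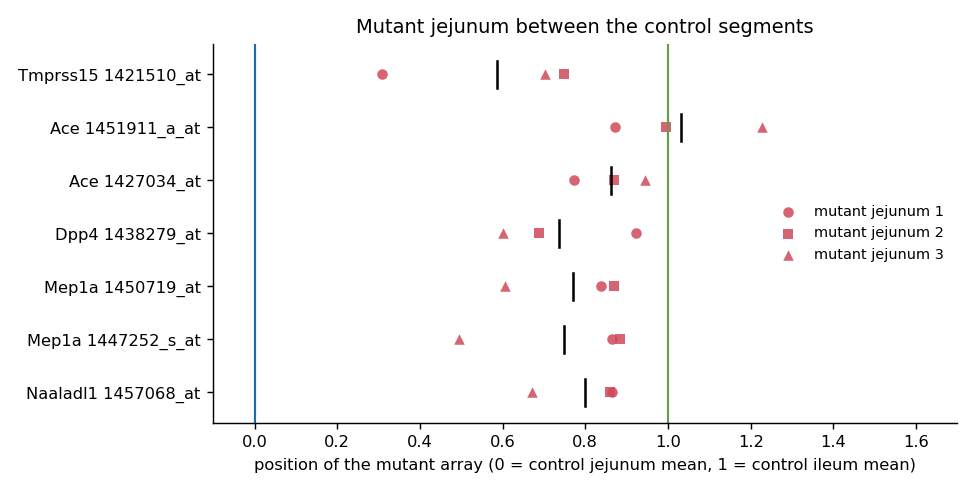
Position of each mutant array (horizontal axis, 0 for the control jejunum mean and 1 for the control ileum mean) for the 7 probe sets whose control segments differ by at least 1 on the log2 scale; symbols are the 3 mutant arrays and bars their means. All points lie between 0.309 and 1.23, with Tmprss15 on mutant jejunum 1 nearest to control jejunum.

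Set directly against control ileum, mutant jejunum differed in 1 of the 9 genes. Anpep was lower in the mutant by a small amount (log2 difference -0.35, limma adjusted p = 0.0440), and 1.7% of all genes tested were called lower and 1.97% higher. The call of Anpep was lost on leaving out any of the 9 arrays (adjusted p from 0.0538 to 0.161) and with no filter or no intensity trend (adjusted p = 0.118 and 0.185). With no scaling between arrays the difference turned to 0.11 (adjusted p = 0.575). Tmprss15 stood 1.60 higher in the mutant than in control ileum (adjusted p = 0.0547, groups not overlapping, as for 5 of the 9 genes and 22.6% of all genes tested) and was called without mutant jejunum 2 or 3 (1.90 and 1.82, adjusted p = 0.0484 and 0.0462). With ileal values below the filter level the size rests on the pseudocount, being 3.51 with 1 (adjusted p = 0.0248) and 0.71 with 64 (adjusted p = 0.164). It was also called with array weights, no scaling between arrays or the replicate number as a block (adjusted p = 0.0431, 0.00577 and 0.0346). Mep1a was 0.60 lower than in control ileum by probe set 1450719_at (95% interval of the difference -1.02 to -0.19, adjusted p = 0.130). For Ace the interval ran from -0.68 to 0.53 by probe set 1451911_a_at, and for Naaladl1 from -0.69 to 0.05.

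The peptidases also ranked the arrays of a group in the same way. Mutant jejunum 3 was the lowest mutant array for 8 of the 9 genes, all but Tmprss15, where over all genes tested it was the lowest for 39.3%. Control jejunum 3 was the highest control jejunum array for 8 of 9, again all but Tmprss15, against 33.3% of all genes. Control ileum 3 was the lowest ileal array for 8 of 9, all but Mep1b, against 33.3%. The 14 enterocyte markers ranked mutant jejunum 3 lowest in 12 and control ileum 3 lowest in 11, and the 19 tested genes of brush border structure did so in 13 and 13. For control jejunum 3 the markers were less one-sided, with 6 of 14 highest there, the same number as on control jejunum 1, and 11 of 19 structure genes. On mutant jejunum 3 a lower level of a peptidase thus went with lower levels of other enterocyte genes, and their part in the spread of the mutant arrays was not tested.

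The genes whose levels over the 9 arrays were most like those of the 4 called members were found by Pearson's r, as a description. The 9 points share 3 group means, so r mainly follows the order of the groups. For Tmprss15 the closest were Tbck, Slc39a14 and Retsat (r = 0.988, 0.987 and 0.984). Retsat, a retinol saturase, had group means of 10.64, 9.45 and 8.10 in control jejunum, mutant jejunum and control ileum. For Ace they were Fam172a, Rabl3 and Prxl2a (0.992, 0.988 and 0.982), of which Prxl2a went from 11.48 to 8.62 and 8.13. For Mep1a they were Ppfia3, Naaladl1 and Gsdme (0.990, 0.988 and 0.983), and for Naaladl1 they were Mep1a, Tceal1 and Ppfia3 (0.988, 0.988 and 0.976). Mep1a and Naaladl1 thus stood in each other's 3 closest genes among 13830 tested.

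Other steps of peptide digestion were taken from lists of related genes. Of 15 tested membrane peptidases outside the 9, none was called by its brightest probe set between mutant and control jejunum. Their median difference was -0.15, from -0.66 to 0.49. An unadjusted p under 0.05 was found for 4 of them, against 2530 of all 13830 genes tested. A further probe set was called for Dpep1 and for Adam10, where 1 of 2 and 2 of 3 were not called. Neprilysin, the endopeptidase encoded by Mme, averaged 12.19 in control jejunum, 11.64 in the mutant and 10.28 in ileum. Its mutant difference was -0.55 (limma adjusted p = 0.0520), and the ileal level was lower than that of control jejunum (-1.92, adjusted p = 1.04e-05) and lower than that of the mutant (mutant minus ileum 1.36, adjusted p = 0.000727). Dpep1, a renal and intestinal dipeptidase, was 11.55, 12.04 and 12.29 in that order by its brightest probe set. By this probe set it was called in control ileum (0.74, adjusted p = 0.00696) but not in the mutant (0.49, adjusted p = 0.109). Of 25 peptidases of the cytosol and lysosome, none was called by its brightest probe set in the mutant (median -0.02, 3 with an unadjusted p under 0.05). A further probe set was called for Dpp8, Tpp2 and Metap1, where 2 of 3, 4 of 5 and 2 of 3 were not called. In control ileum 1 of the 25 was higher and 4 lower, against 8.79% and 9.12% of all genes tested.

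Genes of peptide and amino acid transport changed in both directions. Of 18 tested carriers of peptides and amino acids or their partner subunits, 3 were higher and 5 lower in mutant than in control jejunum. Of all genes tested, 2.1% were called higher and 2.29% lower. The carriers are counted by their brightest probe set. Among those called lower, only 1 of 3 tested probe sets of Slc43a2 and 3 of 4 of Slc16a10 had that call. The 4 with the largest differences were Slc7a8 (-2.88), an exchanger of neutral amino acids, Slc36a1 (-2.83), a proton-coupled carrier of small amino acids, Slc6a14 (2.79), a broad amino acid carrier, and Slc1a1 (1.52), a glutamate carrier. Their limma adjusted p-values were 0.000544, 6.83e-07, 0.0356 and 0.00635. Slc6a14 averaged 4.55 in control jejunum, below the filter level of 4.95, and 7.34 in mutant jejunum (SE of the difference 0.62). The size of its rise therefore also rests on the pseudocount, and other pseudocounts were not tested for this gene. Slc15a1, the peptide carrier PepT1 that takes up di- and tripeptides, stood at 10.23, 9.52 and 9.69 in control jejunum, mutant jejunum and control ileum and was not called (mutant difference -0.71, adjusted p = 0.110). The median over these 18 was -0.16.

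A list of disaccharidases and other hydrolases, not all of them surface enzymes, and 1 of brush border structure served as a further comparison. Of 11 disaccharidases and other hydrolases, each by its brightest probe set, 2 were lower in the mutant and none was higher. The median of the 11 was -0.75, the value of Lipe. The 2 lower ones were lactase (Lct) and trehalase (Treh), with differences of -4.11 and -1.59. Enpp3 (-2.75, limma adjusted p = 0.0811) and Asah2 (-1.59, adjusted p = 0.263) were not called. Further probe sets of both were called, with 2 of 5 tested ones of Enpp3 and 2 of 3 of Asah2 not called. In control ileum 8 of the 11 were lower and none higher, against 9.12% and 8.79% of all genes tested. Of 19 genes of brush border structure, 1 was called in the mutant, Baiap2l1, higher by 0.94 in 1 of its 2 probe sets (median -0.01). Of 14 protease inhibitors, 1 was lower, Spink1, the trypsin inhibitor (-0.55, adjusted p = 0.0212). The median of these 14 was 0.26, with 8 at an unadjusted p under 0.05, against 2530 of all 13830 genes tested. In control ileum 5 of the 14 were higher and none lower than in control jejunum, against 8.79% and 9.12% of all genes tested. None of 6 tested pancreatic products was called by limma in any of the 3 comparisons, with 1, 1 and 0 at an unadjusted p under 0.05. Over all 13830 genes tested these counts were 2530, 4482 and 2631.

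**Figure D4:**
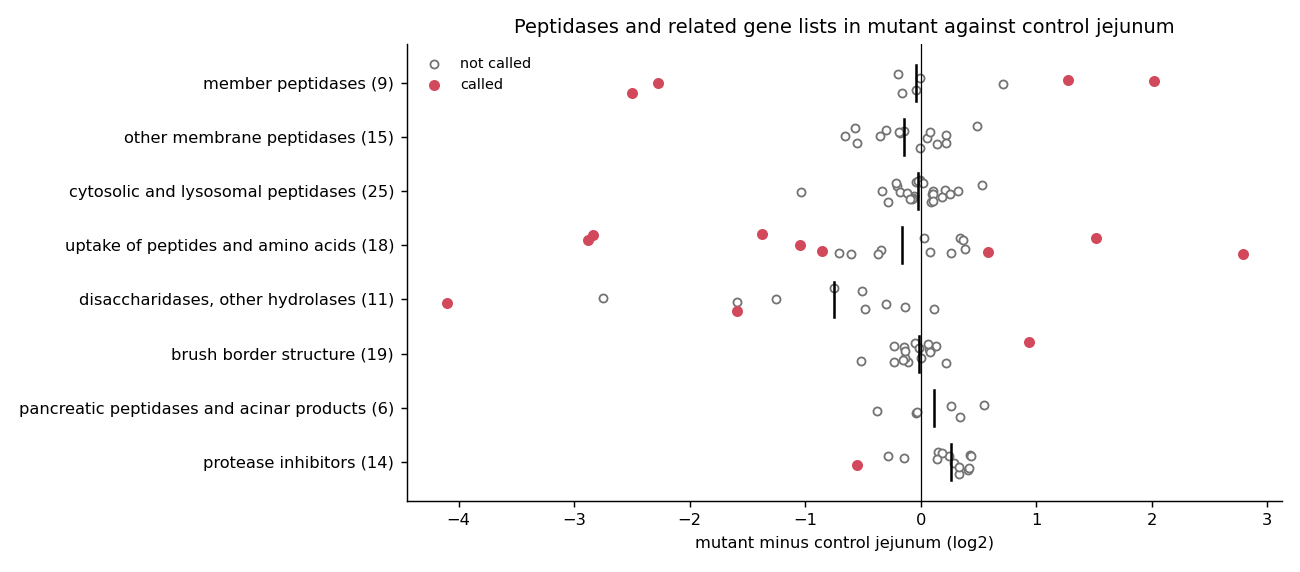
Log2 difference between mutant and control jejunum (horizontal axis) of each tested gene of the 9 peptidases and of 7 related gene lists (number of genes in brackets); filled points are called at limma adjusted p under 0.05 and bars are medians. Each gene is shown by its brightest probe set. Called points lie on both sides of 0 for the member peptidases and the carriers, and no point is called among the other membrane, cytosolic and lysosomal peptidases.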

How the data were processed

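Per the labels' protocols, total RNA was isolated with the RNeasy mini kit, labelled with biotin by the Affymetrix one-cycle procedure and hybridized to 1 array per mouse. The deposited values are intensity per probe set on a linear scale, made by the authors with GCOS, per the submitters' processing notes, with settings not given in the sources used here. From these, 64 control probe sets were left out, 16 was added, log2 was taken and the 9 arrays were quantile-normalized. A probe set was tested where at least 3 arrays exceeded the 40th percentile (4.95), which left 29307 of 45037. All 3 groups were fitted together with limma 3.58.1 in R 4.3.3 (lmFit, eBayes with an intensity trend), and p-values were adjusted by Benjamini-Hochberg over all probe sets tested, with calls at adjusted p under 0.05. The fit was tested on simulated data with the same spread on every array and changes only in genes of middle level in control jejunum. That test therefore does not cover an outlying array or genes near the lowest levels. A gene with several probe sets is represented by that with the highest mean. Probe sets are named from GEO's platform annotation, which can be old. Every member is named with all its probe sets; from each related list at most the 4 called genes with the largest mutant difference are named, other genes by values, and for each called member the 3 genes with the highest r. The members and lists were chosen with earlier results of these data known. Alternatives changed the scaling, pseudocount, filter, array weights, trend, groups fitted, replicate block, representative probe set, and left out each array. Arrays carry no read depth, so the number of arrays limits precision.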

Additional observations from a re-analysis of the deposited data

How the results depend on the processing

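The count of called peptidases between mutant and control jejunum was 4 and stayed between 3 and 5 under every alternative run, leaving out single arrays included. Between control ileum and control jejunum it was 5 and ran from 4 to 7, and from 4 to 5 on leaving out single arrays. Between mutant jejunum and control ileum the count of 1 became 2 with no scaling (Mep1b and Tmprss15), trimmed mean scaling, a pseudocount of 1 or array weights, and 0 with median centring, no filter, no intensity trend or only the 2 groups compared, and ran from 0 to 1 without single arrays. With no scaling the median of all probe sets was -0.40 in ileum against jejunum and 0.41 in mutant against ileum (0.01 and -0.01 as reported). Of 840 values of single probe sets under an alternative, 768 kept direction and call, 20 lost the call, 18 gained it and 34 changed sign. The sign changes concerned differences that were not called, apart from Anpep. In mutant against control jejunum, Enpep gave 0.0799 with no scaling, 0.13 with median centring, 0.0391 with trimmed means and 0.0440 with array weights, and Mep1b gave 0.0621, 0.11 and 0.0213 with the scalings in that order. In ileum against control jejunum, no scaling gave Anpep -0.21, Enpep -0.15 and Dpp4 -0.32 (1416697_at) and -0.44 (1459973_x_at), the latter -0.0830 with median centring, and trimmed means gave Mep1b 0.0721. In mutant against ileum, no scaling gave Ace (1451911_a_at) 0.50, Anpep 0.11, Enpep 0.23, Naaladl1 0.14, Xpnpep2 0.40 and Dpp4 0.24, 0.38 and 0.36 (1416697_at, 1459973_x_at, 1441342_at). Median centring gave Ace 0.19, Xpnpep2 0.0937 and Dpp4 0.0687 and 0.0524 (1459973_x_at, 1441342_at), array weights gave Ace 0.12, and trimmed means gave Mep1b -0.0508. Leaving out single arrays, Enpep ran from -0.0594 to 0.0896 and Mep1b from -0.0831 to 0.0219 in mutant against control jejunum. In mutant against ileum, Ace (1451911_a_at) ran from -0.27 to 0.25, Dpp4 (1441342_at) from -0.27 to 0.0165 and Mep1b from -0.00868 to 0.13. The cause of these changes was not tested.

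Not every pair of arrays with the same replicate number deviated together. The correlations were 0.17, -0.06 and -0.01 between mutant and control jejunum, -0.07, 0.05 and -0.04 between control ileum and control jejunum, and 0.12, 0.01 and 0.10 between mutant jejunum and control ileum. Pairs with different numbers ran from -0.19 to 0.19, a range that holds all of these values, so the correlations cannot decide on a pairing. Each array was of a different mouse, and the numbers were not taken to pair the mice. With the replicate block the counts were 4, 5 and 1, the last being Tmprss15 (1.60, limma adjusted p = 0.0346) in place of Anpep (adjusted p = 0.0687).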
